A study of Homo sapiens with 6 samples.

Results

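The nuclear genes for the subunits of the mitochondrial respiratory chain and ATP synthase were compared between HEK-293T cells that express the squid protein RfA1 and cells that express GFP alone. Genes were taken by symbol (NDUFA, NDUFB, NDUFC, NDUFS and NDUFV genes for complex I, SDHA to SDHD for complex II, UQCR genes for complex III, COX4 to COX8 genes for complex IV and ATP5 genes for complex V), without the NDUFAF assembly factors. Of 16655 genes in the table, 84 matched, and 80 of them had at least 10 estimated counts in 3 or more of the 6 libraries. All 80 reached this count in all 6 libraries, so that none was kept by 1 group alone. Complexes I, II, III, IV and V had 38, 4, 8, 12 and 18 of these genes. The 4 that did not reach it were the readthrough genes NDUFC2-KCTD14 and ATP5MF-PTCD1 and the paralogs UQCRHL and ATP5MGL, with at most 14.4, 26.7, 2.04 and 1.0 estimated counts in any library. Just inside this limit, COX6B2 had 13.5 to 26.0 counts. The symbols also take in genes that are isoforms or partners rather than standard subunits (NDUFA4L2, COX6B2, the supercomplex factor COX7A2L and the inhibitor ATP5IF1), and miss the subunits NDUFAB1 and CYC1.

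HEK-293T cells are an established line from human embryonic kidney, transformed with SV40 large T antigen. Dishes were transfected by lipofection with pEGFP-C1 alone (GFP group, 3 libraries) or with the same vector carrying GFP-tagged RfA1 (RfA1 group, 3 libraries), and total RNA was taken 24 h later. Both groups therefore carry GFP and were lipofected, and both hold transfected and untransfected cells in unknown shares. Plasmid transcripts were not analysed here, so that the expression of RfA1 was not checked in the RNA, and in such bulk samples fewer cells that express a gene and less RNA per cell cannot be told apart. The labels give replicate numbers without saying what a replicate was, so that p-values measure the spread between these libraries, which may be technical.

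Library totals were 10272306 to 11566284 estimated counts. Between any 2 libraries the counts differed beyond sampling noise (chi-square per degree of freedom 1.90 to 17.5). The 8 marker genes of the line, led by VIM at 578 to 724 TPM, were each at 1 TPM or more in every library. They summed to 952 to 1137 TPM in GFP cells and 991 to 1197 TPM in RfA1 cells. The 5 endothelial markers summed to at most 0.29 TPM, the 4 measured hepatocyte markers to at most 2.07 TPM, the 5 measured leukocyte markers, led by CD68, to at most 9.04 TPM and the 5 measured fibroblast markers, led by COL1A1, to at most 11.6 TPM. TTR, CD3E and COL1A2 of these lists were not analysed here. PTPRC was at 0 to 0.03 TPM. PAX2 and LHX1 of the line's list, at 3.43 to 6.69 TPM, lay below COL1A1 at 8.2 to 10.05 TPM and near CD68 at 4.18 to 6.69 TPM. The deviation of a gene from its mean over the libraries moved with the GC content of its transcript, with a Spearman's rho over all genes from -0.664 in RfA1 replicate 3 to 0.653 in GFP replicate 2. RfA1 replicates 1 and 3 lay at one end of the first principal component, GFP replicates 2 and 3 and RfA1 replicate 2 at the other, and GFP replicate 1 near 0.

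The respiratory chain sits in the inner mitochondrial membrane. Complex I takes electrons from NADH and complex II from succinate, both pass them to ubiquinone, complex III passes them to cytochrome c and complex IV to oxygen. Complexes I, III and IV pump protons, and complex V, the ATP synthase, lets the protons flow back to make ATP. Most subunits are nuclear-encoded and imported, while the mitochondrial genome encodes membrane subunits of complexes I, III, IV and V. The mitochondrially encoded subunits were not analysed here.

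Many nuclear genes of this system are known to carry binding sites for NRF1, for the ETS factor GABPA and for YY1 near their starts. Promoters (250 bases before to 50 bases after the start, RefSeq, GRCh38.p14) were found for 68 of the 80 genes. The letters searched, on both strands, were GCGCA, any base and GCGC for NRF1, CCGGAAG for ETS factors and AANATGGC for YY1. The NRF1 letters were in 16 of the 68 promoters (23.5%), against 11.7% of the 10633 promoters found for tested genes and 6.28% of all 27305 promoters. The ETS letters were in 20 (29.4%), against 19.1% and 10.7%, and the YY1 letters in 22 (32.4%), against 10.1% and 6.82%. At least 1 of the motifs was in 42 of the 68 promoters (61.8%) and in 34.9% of those of tested genes. In none of the 68 did hits of different motifs overlap. The NRF1 letters were in 6 of 33 complex I promoters, 2 of 3 for complex II, 4 of 7 for complex III, 0 of 11 for complex IV and 4 of 14 for complex V. The median GC content of the 68 promoters was 61.0%, against 65.7% for tested genes.

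The 250 bases before the start are shown for the gene with the smallest p of each complex, whose counts are given further on, so that the promoters of the genes named most often can be compared. Capitals mark the NRF1, ETS and YY1 letters. They lie at chr19:1383657-1383906 (+) for NDUFS7, chr11:112086623-112086872 (+) for SDHD, chr19:1605463-1605712 (-) for UQCR11, chr11:63974370-63974619 (+) for COX8A and chr10:7787927-7788176 (+) for ATP5F1C.
NDUFS7: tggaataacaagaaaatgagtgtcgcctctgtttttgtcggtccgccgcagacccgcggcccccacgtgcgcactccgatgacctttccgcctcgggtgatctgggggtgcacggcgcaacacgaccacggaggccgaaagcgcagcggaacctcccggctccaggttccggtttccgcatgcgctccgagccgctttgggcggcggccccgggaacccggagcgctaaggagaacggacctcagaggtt
SDHD: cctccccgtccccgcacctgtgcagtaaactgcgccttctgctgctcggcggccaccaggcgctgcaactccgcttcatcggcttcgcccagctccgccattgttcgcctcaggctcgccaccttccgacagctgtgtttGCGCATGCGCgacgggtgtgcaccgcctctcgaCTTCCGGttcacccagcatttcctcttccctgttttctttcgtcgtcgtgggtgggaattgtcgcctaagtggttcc
UQCR11: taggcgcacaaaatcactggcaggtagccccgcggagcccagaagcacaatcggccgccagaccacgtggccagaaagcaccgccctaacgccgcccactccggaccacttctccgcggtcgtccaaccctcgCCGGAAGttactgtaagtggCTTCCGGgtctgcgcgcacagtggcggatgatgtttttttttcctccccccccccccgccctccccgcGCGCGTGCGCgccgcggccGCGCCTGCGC
COX8A: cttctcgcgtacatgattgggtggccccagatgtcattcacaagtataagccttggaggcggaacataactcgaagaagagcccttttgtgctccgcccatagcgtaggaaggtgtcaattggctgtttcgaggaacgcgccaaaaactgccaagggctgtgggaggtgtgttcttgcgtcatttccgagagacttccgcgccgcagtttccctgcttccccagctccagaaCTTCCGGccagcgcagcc
ATP5F1C: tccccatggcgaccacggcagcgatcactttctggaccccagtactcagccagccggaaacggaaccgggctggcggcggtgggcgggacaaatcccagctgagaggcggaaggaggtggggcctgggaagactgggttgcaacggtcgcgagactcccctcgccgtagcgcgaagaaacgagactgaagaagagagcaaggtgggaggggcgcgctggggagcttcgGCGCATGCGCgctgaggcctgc
SDHD and UQCR11 hold NRF1 and ETS letters, ATP5F1C holds NRF1 letters and COX8A holds ETS letters. The NRF1 letters of SDHD begin 110 bases before the start and those of ATP5F1C 22 bases before it, while the pair in UQCR11 begins 29 and 10 bases before it. COX8A and NDUFS7 also hold YY1 letters, which cross the start in COX8A and lie after it in NDUFS7 and are not shown. The median log2 fold change between the groups was -0.04 for the 16 genes with the NRF1 letters and -0.05 for the 52 without them, -0.07 and -0.04 for the ETS letters, and 0.00086 and -0.05 for the YY1 letters.

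By TPM, the subunit genes ranked among the most abundant transcripts of these cells. By mean TPM, the authors' level per transcript length, 62 of the 80 were in the top 10% of the 13002 genes tested, and 77 were above the median gene, whose mean was 14.8 TPM. The median over the 80 genes was 275 TPM. Together they made up 34298 to 35287 TPM of each GFP library and 33665 to 34485 TPM of each RfA1 library. Their share of the counts, which are not scaled to length, was 1.18% to 1.23% in GFP libraries and 1.17% to 1.19% in RfA1 libraries. The sums of complexes I and V were the largest, at 13000 ± 109 and 11750 ± 174 TPM in GFP cells (SD, n = 3), followed by complex IV at 7523 ± 193, complex III at 2004 ± 49.6 and complex II at 545 ± 29.6 TPM. In RfA1 cells the sums were 12680 ± 363, 11480 ± 209, 7313 ± 202, 2063 ± 42.6 and 586 ± 58.9 TPM in the same order (SD, n = 3). For each of the 5 complexes the libraries of both groups overlapped in this sum.

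**Figure D1:**
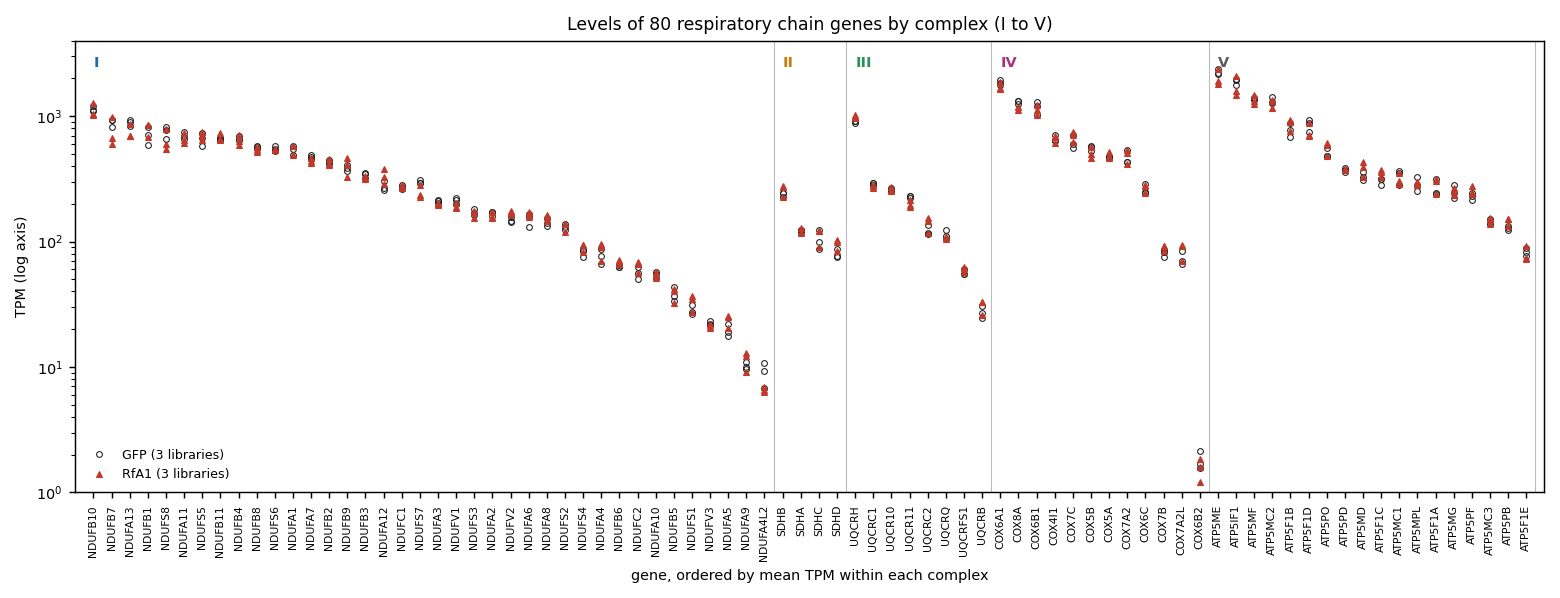
TPM (log axis) of the 80 genes in each of the 6 libraries, ordered by mean TPM within complexes I to V. Open circles are GFP libraries and red triangles RfA1 libraries, and the levels run from 1.67 TPM (COX6B2) to 2150 TPM (ATP5ME) while both groups lie close together for most genes.

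ATP5ME, subunit e of the membrane part of the ATP synthase, had the highest level, 2150 ± 241 TPM (SD, 6 libraries). ATP5IF1, which inhibits ATP hydrolysis by the enzyme, followed at 1810 ± 238, and COX6A1 at 1791 ± 112 TPM. ATP5IF1 and COX6A1 did not differ beyond their spread. NDUFB10, of the membrane arm of complex I, led complex I at 1129 ± 94.4 TPM, UQCRH, the hinge protein next to cytochrome c1, led complex III at 947 ± 50.8 and SDHB, the iron-sulphur subunit, led complex II at 248 ± 20.7 TPM. The lowest of each complex were NDUFA4L2 at 7.76 ± 1.80, SDHD at 87.7 ± 11.4, UQCRB at 29.1 ± 3.67, COX6B2 at 1.67 ± 0.302 and ATP5F1E at 80.9 ± 8.19 TPM. Highest and lowest thus lay 145-fold apart in complex I, 2.83-fold in complex II, 32.6-fold in complex III, 1070-fold in complex IV and 26.6-fold in complex V.

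These levels, ranks and orders rest on the transcript lengths used for TPM. The lengths implied by the authors' FPKM were 60.8 bases for ATP5ME and 71.5 bases for NDUFB1 and reached 8206 bases for UQCRB. Over the 80 genes they had a Spearman's rho of -0.802 with mean TPM, where genes are not independent replicates. UQCRB and UQCRH, which took 165 ± 16.5 and 186 ± 7.51 CPM of reads in GFP cells (SD, n = 3; counts scaled to library size, not to length), stood 32.6-fold apart in TPM. Several of these genes have close copies elsewhere in the genome, such as UQCRHL for UQCRH, and how the authors' counting split shared reads is not given in the sources used here.

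Of the isoforms and relatives measured, COX6B2 and NDUFA4L2 stood well below their main genes. COX6B1, at the intermembrane side of complex IV, had 1148 ± 112 TPM, and its testis isoform COX6B2 reached 0.131% to 0.177% of it in GFP cells and 0.0992% to 0.165% in RfA1 cells. By CPM COX6B2 reached 0.79% to 1.15% of it in GFP cells and 0.636% to 1.03% in RfA1 cells. NDUFA4, named for complex I and now counted as a complex IV subunit, had 81.4 ± 11.6 TPM, and NDUFA4L2, its hypoxia-inducible relative, reached 7.74% to 16.1% of it in GFP libraries and 6.63% to 9.33% in RfA1 libraries. By CPM NDUFA4L2 reached 4.05% to 8.39% of it in GFP libraries and 3.47% to 4.87% in RfA1 libraries. COX7A2L, which joins complexes III and IV into supercomplexes, stood at 15.5% to 16.4% of COX7A2 in GFP cells and at 16.9% to 18.3% in RfA1 cells. These TPM ratios did not overlap between the groups, but the ratios of CPM did, at 43.8% to 50.7% in GFP cells and 44.5% to 52.6% in RfA1 cells. The 3 genes ATP5MC1, ATP5MC2 and ATP5MC3 encode the same mature c subunit of the proton-driven ring. ATP5MC2 gave 73.7% ± 1.53 of their TPM in GFP cells and 73.5% ± 1.36 in RfA1 cells (SD, n = 3), and ATP5MC3 7.92% ± 0.214 and 8.46% ± 0.219. By CPM ATP5MC3 stood at 64.5% to 66.1% of ATP5MC2 in GFP cells and at 66.3% to 72.5% in RfA1 cells, without overlap. The CPM ratios of ATP5MC1 to ATP5MC2 did overlap, at 19.0% to 23.5% and 19.1% to 22.7%. Differences in these ratios were not tested.

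For the comparison of RfA1 with GFP cells, 0 of the 80 genes had an adjusted p under 0.05 by the quasi-likelihood test of edgeR, while 0.0769% of all genes tested (10 of 13002) did. With DESeq2 (0.254% of all genes) and with limma on log2(TPM + 1) (0.0308%) it was 0 of the 80 as well. At an unadjusted p of 0.05, 6 of the 80 (7.5%) differed, 1 higher and 5 lower with RfA1, against 13.9% of all genes (7.3% higher, 6.64% lower). The split of higher and lower genes moved with the method. It was 0 and 6 with upper-quartile normalization (6.71% and 7.12% of all genes), 0 and 4 with DESeq2 (5.08% and 4.9%) and 5 and 5 with limma (8.4% and 4.18%). In 13 of the 80 genes (16.2%) the libraries of the groups did not overlap in normalized counts (CPM), against 17.9% of all genes. Of these, 6 were higher and 7 lower, against 9.86% and 8.01% of all genes.

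By the spread between libraries alone, most changes were bounded. The intervals do not take in the shifts with GC content or with RfA1 replicate 2 that are given below. For 76 of the 80 genes the 95% interval of the log2 fold change, not adjusted for the number of genes, lay within 1.5-fold in either direction, against 81.1% of all genes tested. The exceptions at 1.5-fold were NDUFA4L2 and COX6B2, with 42 to 85 and 13.5 to 26.0 counts per library, and NDUFB7 and NDUFS8. The median standard error was 0.089 on the log2 scale for the 80 genes and 0.11 for all genes tested, whose median level was lower (14.8 against 275 TPM).

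**Figure D2:**
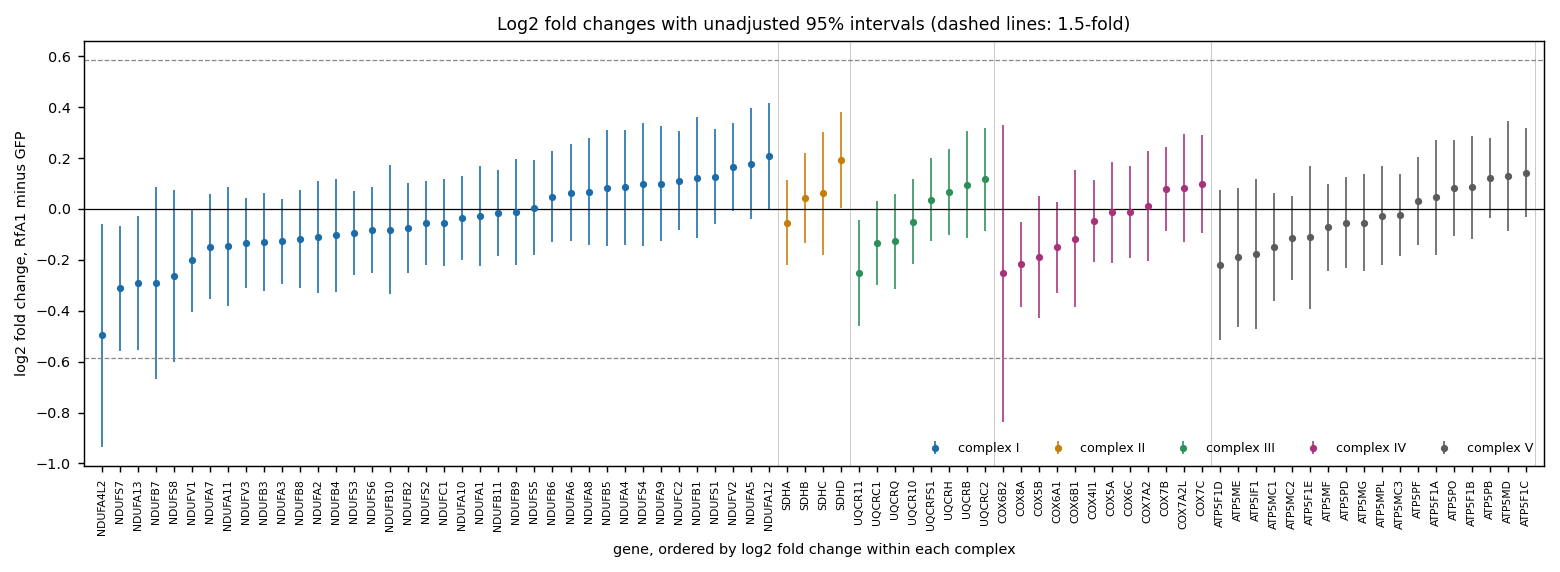
Log2 fold change (RfA1 minus GFP) of each of the 80 genes with its unadjusted 95% interval, ordered within complexes I to V, with dashed lines at 1.5-fold. The intervals of 4 genes, NDUFA4L2, NDUFB7, NDUFS8 and COX6B2, reach past the lower line and no interval reaches the upper one.

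By complex, the median log2 fold changes were -0.05 (I), 0.05 (II), -0.0068 (III), -0.03 (IV) and -0.04 (V), with -0.0024 for all genes tested. Positive values were found for 14 of 38 genes of complex I, 3 of 4 of complex II, 4 of 8 of complex III, 4 of 12 of complex IV and 7 of 18 of complex V, and for 49.5% of all genes. The median of the complex I genes in a library, relative to the GFP mean and to all genes, was 0.02, 0.0082 and -0.01 on the log2 scale in GFP replicates 1, 2 and 3 and -0.09, -0.01 and -0.06 in RfA1 replicates 1, 2 and 3. For complex II it was 0.04, 0.02 and -0.06 in GFP cells and 0.11, -0.04 and 0.12 in RfA1 cells. RfA1 replicates 1 and 3 thus stood apart from the GFP libraries in both complexes and RfA1 replicate 2 did not. In complexes III, IV and V the groups overlapped too.

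**Figure D3:**
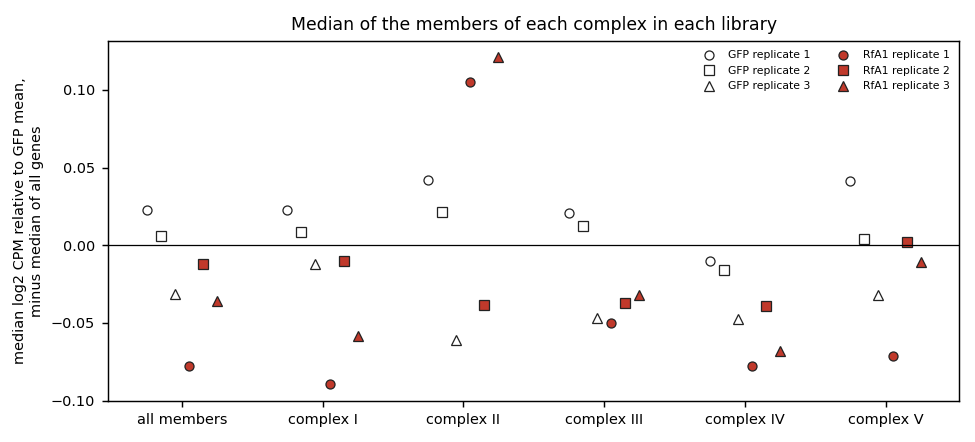
Median log2 CPM of the genes of each complex in each library, shown as the difference from the GFP mean minus the median of all genes tested. White symbols are GFP and red symbols RfA1 libraries, symbol shape gives the replicate, and the groups overlap in all 5 complexes.

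In complex I, the 7 nuclear core subunits carry the flavin and the iron-sulphur clusters that lead electrons to ubiquinone. Of these, 2 had positive and 5 negative log2 fold changes, with a median of -0.09. NDUFS7 (Gene ID 374291), which holds the last cluster before ubiquinone, had 112, 122 and 124 CPM in GFP replicates 1, 2 and 3 and 88.0, 115 and 85.0 CPM in RfA1 replicates 1, 2 and 3. RfA1 replicate 2 lay within the GFP range and the other two below it. Its log2 fold change was -0.31 (SE 0.11, edgeR adjusted p = 0.293, where SE is the standard error and p-values were adjusted by the method of Benjamini and Hochberg). NDUFV1, which binds NADH and the flavin, had a log2 fold change of -0.20, NDUFS8 of -0.26, and NDUFV2, its partner with a further cluster, of 0.16. The NDUFV2 libraries did not overlap, with 62.1 to 66.7 CPM in GFP and 70.9 to 74.7 CPM in RfA1 cells (edgeR adjusted p = 0.379). Core subunits of one module therefore had values on both sides of 0, none of them past the threshold.

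Among the 31 other genes taken for complex I by symbol, 12 had positive and 19 negative log2 fold changes. They are the accessory subunits that surround the core, with NDUFA4, now counted to complex IV, and its relative NDUFA4L2. NDUFA12, which sits where the matrix arm meets the membrane arm, had the largest positive value of the complex, 0.21 (SE 0.096, edgeR adjusted p = 0.365), with 64.4, 57.9 and 57.6 CPM in GFP and 67.3, 63.3 and 77.1 CPM in RfA1 cells. The groups overlapped. NDUFA4L2 had the largest negative value, -0.50 (SE 0.20, 95% interval -0.94 to -0.06, edgeR adjusted p = 0.321), with 4.5, 7.5 and 6.3 CPM in GFP and 4.4, 4.6 and 4.0 CPM in RfA1 cells. GFP replicate 1 was within the RfA1 range, so that its groups overlapped as well. NDUFA13, also known as GRIM-19, was the third gene of complex I with an unadjusted p under 0.05, with a log2 fold change of -0.29 (edgeR adjusted p = 0.328). NDUFB10, the most abundant, had 347 ± 27.1 CPM in GFP and 328 ± 58.9 CPM in RfA1 cells (SD, n = 3), with a log2 fold change of -0.08, and NDUFA4 had one of 0.09.

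In complex II, the flavoprotein SDHA and the iron-sulphur subunit SDHB oxidize succinate, and SDHC and SDHD anchor them in the membrane. SDHD (Gene ID 6392) had 67.6, 62.3 and 59.5 CPM in GFP replicates 1, 2 and 3 and 73.1, 67.8 and 75.6 CPM in RfA1 replicates 1, 2 and 3. Each RfA1 library was above every GFP library, though RfA1 replicate 2 exceeded GFP replicate 1 by little. The log2 fold change was 0.19 (SE 0.087, edgeR adjusted p = 0.354), and SDHD was the 1 gene of the 80 that was higher at an unadjusted p of 0.05. SDHA had 221 ± 8.85 CPM in GFP and 213 ± 7.26 CPM in RfA1 cells and SDHB 132 ± 6.88 and 136 ± 7.22 CPM (SD, n = 3), with log2 fold changes of -0.05 and 0.04 that were within the spread between libraries.

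In complex III, the core proteins UQCRC1 and UQCRC2 and the Rieske protein UQCRFS1 had log2 fold changes of -0.13, 0.12 and 0.04. UQCR11 (Gene ID 10975), a small subunit next to the Rieske protein, had 165, 182 and 175 CPM in GFP replicates 1, 2 and 3 and 138, 167 and 134 CPM in RfA1 replicates 1, 2 and 3. RfA1 replicate 2 again lay within the GFP range. The log2 fold change was -0.25 (SE 0.096, edgeR adjusted p = 0.308), and -0.22 with the GC correction (edgeR adjusted p = 0.186). UQCRH and UQCRB had log2 fold changes of 0.07 and 0.09 with overlapping groups.

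In complex IV, the nuclear subunits surround a mitochondrially encoded core that reduces oxygen. COX8A (Gene ID 1351), the smallest of them, had 220, 236 and 215 CPM in GFP replicates 1, 2 and 3 and 191, 198 and 189 CPM in RfA1 replicates 1, 2 and 3. The groups did not overlap, and here RfA1 replicate 2 lay with the other RfA1 libraries. The log2 fold change was -0.22 (SE 0.077, edgeR adjusted p = 0.286), the smallest p of the 80 genes. COX6A1, the most abundant, had 375 ± 24.8 CPM in GFP and 338 ± 18.9 CPM in RfA1 cells (SD, n = 3), again without overlap, with a log2 fold change of -0.15 (edgeR adjusted p = 0.417). COX7C had the largest positive value, 0.10, and COX4I1, which carries the ATP-sensing site of the enzyme, had -0.05. COX7A2 was at 0.01, COX7A2L at 0.08, COX7B at 0.08, COX6B1 at -0.12 and COX6B2 at -0.25 (SE 0.27).

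In complex V, the F1 part makes ATP around the rotating gamma subunit ATP5F1C. ATP5F1C (Gene ID 509) had 192, 201 and 175 CPM in GFP replicates 1, 2 and 3 and 213, 208 and 205 CPM in RfA1 replicates 1, 2 and 3, without overlap. Its log2 fold change, the largest positive one of the complex, was 0.14 (SE 0.080, edgeR adjusted p = 0.429). ATP5F1D, the delta subunit at the foot of the rotor, had the largest negative one, -0.22 (SE 0.14, edgeR adjusted p = 0.461), with 299, 386 and 356 CPM in GFP and 269, 368 and 257 CPM in RfA1 cells. RfA1 replicate 2 was again among the GFP values. ATP5F1E had a log2 fold change of -0.11 and ATP5ME of -0.19, both with overlapping groups. The 3 c subunit genes had log2 fold changes of -0.15 (ATP5MC1), -0.11 (ATP5MC2) and -0.02 (ATP5MC3), and ATP5MC2 alone of them had groups that did not overlap. ATP5IF1 had 343, 395 and 394 CPM in GFP and 301, 421 and 279 CPM in RfA1 cells, so that RfA1 replicate 2 was its highest library and RfA1 replicate 3 its lowest. Its log2 fold change was -0.18 (SE 0.13, edgeR adjusted p = 0.545).

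**Figure D4:**
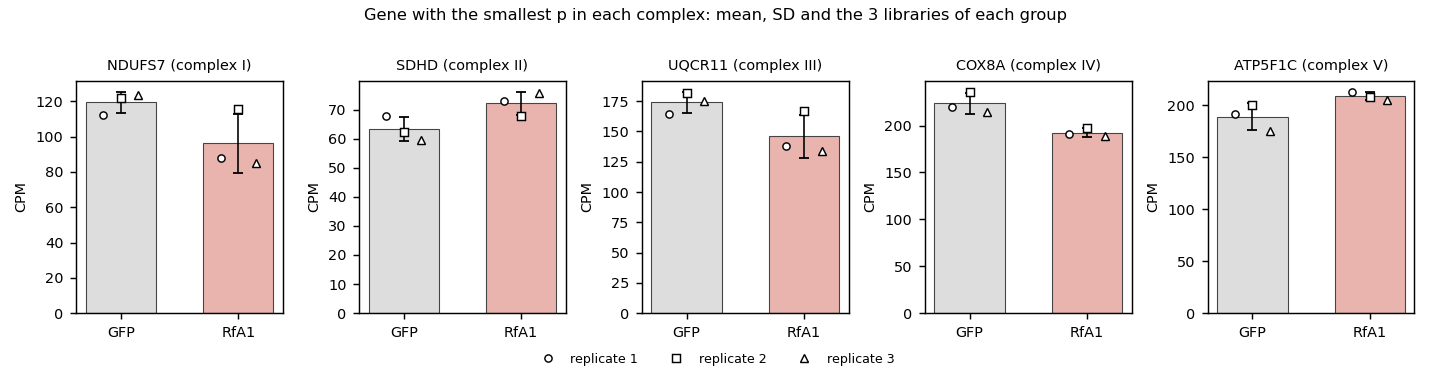
CPM (TMM-normalized counts, scaled to library size) of the gene with the smallest p in each complex. Bars are means and error bars SD of 3 libraries, points are the libraries by replicate number, and RfA1 replicate 2 is the RfA1 library nearest to the GFP mean for NDUFS7, SDHD, UQCR11 and COX8A.

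The number of genes called changed with RfA1 replicate 2. Without it 20 of the 80 genes (25.0%) were called at an adjusted p of 0.05, 3 higher and 17 lower, against 20.1% of all genes (8.56% higher, 11.5% lower). Without any 1 of the other 5 libraries, 0 of the 80 were called, against 0% to 0.0305% of all genes. At an unadjusted p of 0.05 the number was 9 without GFP replicate 1 (17.2% of all genes), 2 without GFP replicate 2 (6.55%), 1 without GFP replicate 3 (7.45%) and 0 without RfA1 replicate 1 (6.7%) or 3 (6.82%), against 30 without RfA1 replicate 2 (34.9%). The 20 genes were 12 of complex I, 1 of complex II, 1 of complex III, 2 of complex IV and 4 of complex V. The 3 higher ones were NDUFA12, NDUFA5 and SDHD, with log2 fold changes of 0.27, 0.26 and 0.24. NDUFB7, NDUFS8 and NDUFS7 had the lowest values, -0.58, -0.48 and -0.46 (edgeR adjusted p = 0.000752, 0.00304 and 0.00117). Among the others, ATP5F1D was at -0.40, ATP5IF1 at -0.38, ATP5ME at -0.36, ATP5F1E at -0.28 and NDUFB10 at -0.24 without this library, each more than 1.5 times its value with all libraries.

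The GC content of a gene's transcript moved with these values. All 19 of the genes with a transcript GC content of at least 55% had negative log2 fold changes, with a median of -0.19, and so did 3492 of 4238 such genes among all tested (median -0.13). Of the 25 genes under 45% GC, 17 had positive values, with a median of 0.08, and so did 3521 of 4615 among all tested (median 0.10). Across the 80 genes log2 fold change and GC content had a Spearman's rho of -0.722, and across all genes tested -0.548. Genes are not independent replicates, and all share the same 6 libraries. Of the 17 genes lower without RfA1 replicate 2, 11 had a GC content of at least 55%. This share was not taken for all genes called lower without that library. The deviation of the 19 GC-rich genes from their mean had a median of 0.0093, 0.18 and 0.07 on the log2 scale in GFP replicates 1, 2 and 3 and of -0.20, 0.09 and -0.17 in RfA1 replicates 1, 2 and 3. RfA1 replicate 2 was thus above GFP replicates 1 and 3, and RfA1 replicates 1 and 3 were below all GFP libraries.

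**Figure D5:**
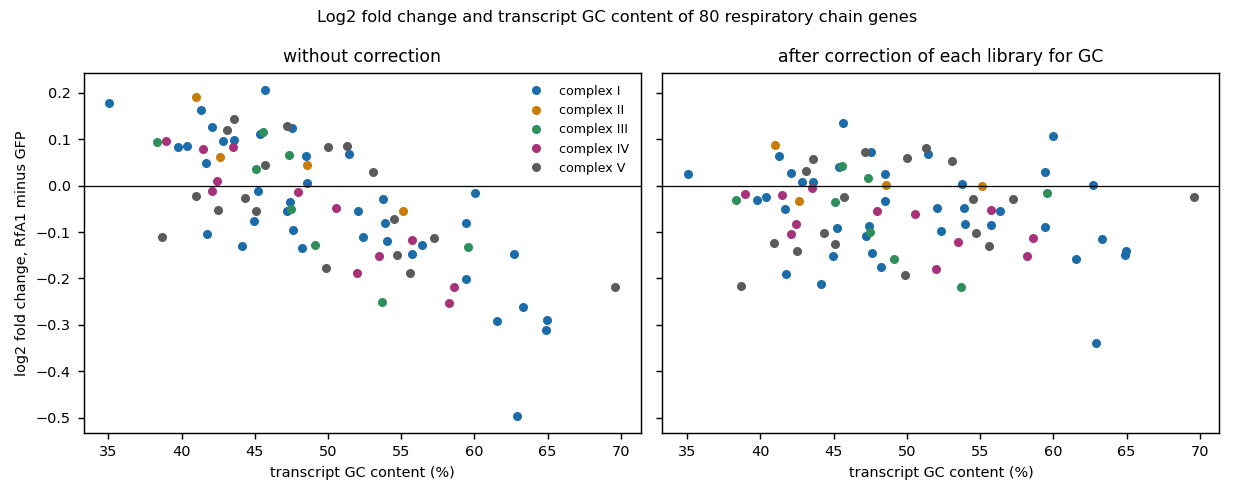
Log2 fold change (RfA1 minus GFP) against transcript GC content for the 80 genes, coloured by complex, before (left) and after (right) a correction of each library for GC content. The Spearman's rho is -0.722 before and -0.163 after the correction, and NDUFA4L2 is the lowest point in both.

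After each library was corrected for GC content, rho across the 80 genes was -0.163 and the median of the 19 GC-rich genes was -0.09, against -0.01 for all tested genes of that content. None of the 80 passed an adjusted p of 0.05, as 0.869% of all genes did, and 7 were lower and 0 higher at an unadjusted p of 0.05, against 7.31% and 7.21% of all genes. NDUFS7 then had a log2 fold change of -0.15 (edgeR adjusted p = 0.258), COX8A of -0.11 (0.394) and SDHD of 0.09 (0.583). Of the complex IV genes, 12 of 12 had negative values after the correction, with a median of -0.07 against -0.01 for all genes. Negative values were also more frequent than positive ones among all 80 genes (56) and all genes tested (53.3%) after the correction, and 0 of the 12 had an unadjusted p under 0.05 in edgeR's test.

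Genes that build and run the same system were described with lists written from general knowledge. In 12 lists with 234 tested genes, 0 were called at an adjusted p of 0.05 by edgeR, and 15 were higher and 9 lower at an unadjusted p of 0.05, which is 10.3% against 13.9% of all genes (7.3% higher, 6.64% lower). Among the lists of more than 10 genes the share ran from 0% to 16.7%, the latter for 2 of 12 regulators. Assembly factors build the complexes without staying in them. Of 20 for complex I, 0 were higher and 3 lower at an unadjusted p of 0.05, and TMEM186 had the smallest p, with 13.4 ± 0.930 CPM in GFP and 10.7 ± 1.46 CPM in RfA1 cells (SD, n = 3; log2 fold change -0.33). Of 4 for complex II, 6 for complex III and 28 for complex IV, 0 differed at that level, with SDHAF1, UQCC2 and HIGD2A having the smallest p. Of 5 for complex V, 1 was lower, ATPAF2, which helps to assemble F1, with 24.6 ± 0.216 and 20.2 ± 0.825 CPM (SD, n = 3; log2 fold change -0.28, edgeR adjusted p = 0.278).

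CYCS, cytochrome c itself, had 219, 186 and 189 CPM in GFP replicates 1, 2 and 3 and 241, 230 and 252 CPM in RfA1 replicates 1, 2 and 3, without overlap. Its log2 fold change was 0.29 (edgeR adjusted p = 0.254), and the 6 genes of its list had 1 higher and 1 lower at an unadjusted p of 0.05. Of 16 genes for the maintenance and transcription of mitochondrial DNA, 1 was higher, MTERF3, which limits transcription there (log2 fold change 0.39, edgeR adjusted p = 0.218). Of 12 nuclear regulators of respiratory genes, 2 were higher and 0 lower, led by GABPB1, the partner of GABPA (0.34, edgeR adjusted p = 0.253). The import list had 2 higher and 1 lower of 27, led by GRPEL1, the exchange factor of the import motor, with 109 ± 8.91 CPM in GFP and 141 ± 9.51 CPM in RfA1 cells (SD, n = 3; log2 fold change 0.37, edgeR adjusted p = 0.184). HSPA9, the chaperone of that motor, led the 14 mitochondrial chaperones and proteases, of which 1 was higher (0.26, edgeR adjusted p = 0.254). Of 78 mitochondrial ribosomal proteins 8 were higher and 3 lower, which is 14.1% against 13.9% of all genes, led by MRPL47 (0.41, edgeR adjusted p = 0.221), and of 18 citric acid cycle enzymes 0 differed, with FH having the smallest p (0.18, edgeR adjusted p = 0.372). The median log2 fold change of the lists ran from -0.13 for complex V assembly factors to 0.06 for the citric acid cycle. When replicate number was added to edgeR's fit, CYCS, MTERF3, GABPB1, GRPEL1, HSPA9 and MRPL47 passed an adjusted p of 0.05. This held for 4.81% of all genes. Without RfA1 replicate 2 they passed too, with UQCC2, ATPAF2 and FH (20.1% of all genes). With the GC correction no smallest-p gene of a list passed. With replicate number and GC correction together, GRPEL1 alone of them passed. Each of these genes was picked for the smallest p of its list in the same libraries. Their passes therefore cannot be set against the shares of all genes, which were not picked.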

How the data were processed

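RNA-seq values of 6 libraries were taken from 1 table. The authors deposited estimated counts per gene without normalization, of which 7.39% to 8.02% per library are not whole, with TPM and FPKM per library. Means over the replicates were not used. The submitters' processing notes name HISAT and GRCh38.p13. The counting tool, its strand setting and the annotation are not given in the sources used here. Groups came from the sample labels.

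Counts were rounded, filtered with filterByExpr (minimum count 10, minimum total count 15; 13002 genes kept) and normalized by TMM. Groups were compared in edgeR 4.0.16 (R 4.3.3) by the two-sided quasi-likelihood test with robust dispersions and group as the only term. P-values were adjusted over all 13002 genes by the method of Benjamini and Hochberg, with a threshold of 0.05. The biological coefficient of variation was 8.83%. Standard errors were taken as the log2 fold change over the root of F. The scripts were tested on simulated data. Alternatives were DESeq2 1.42.0, limma 3.58.1 on log2(TPM + 1), other scalings and filters, the replicate block, and a GC correction (spline with 5 degrees of freedom per library). GC content was that of the longest protein-coding transcript in the basic GENCODE 29 set, or the longest other one where there was none. It was found for 98.32% of genes and all 80 members. This transcript may not be the one counted: it had 13566 bases for SDHC and 5575 for UQCRB, against implied lengths of 1540 and 8206. Members and lists were chosen with earlier results of these data known. Genes were named by a rule: in each complex the highest and lowest level, the smallest p and the largest change each way, plus isoform pairs, ATP5IF1 and the smallest p of each list; other members named were chosen after their values were seen. Figures used matplotlib 3.10.9.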

Additional observations from a re-analysis of the deposited data

How the results depend on the processing

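Over all genes tested, 10 were called at an adjusted p of 0.05 by edgeR, and 6 were with upper-quartile normalization, 20 without a filter on low counts, 113 with the GC correction, 33 with DESeq2, 4 with limma on log2(TPM + 1) and 0 to 2636 when 1 library was left out, the highest without RfA1 replicate 2. For the 80 respiratory chain genes the count at an adjusted p of 0.05 was 0 to 20 and the count at an unadjusted p of 0.05 was 0 to 30 when 1 library was left out, again highest without RfA1 replicate 2, and the latter was 10 with limma. The median log2 fold change of complex IV, relative to all genes, was -0.0623 with the GC correction, against -0.0285 without it, and -0.0782 to -0.0199 when 1 library was left out. That of complex V was -0.0543 to 0.00844, with the highest value without GFP replicate 1. When 1 library was left out, complex I ran from -0.0821 to -0.0275, complex II from 0.0146 (without RfA1 replicate 3) to 0.114 (without RfA1 replicate 2), against 0.0549 with all, and complex III from -0.0343 to 0.0153, on both sides of 0. With the GC correction complex II was at 0.0114. No named gene changed direction with a call. Without a call, COX7C, COX7B, UQCRB, NDUFA4, COX7A2 and COX7A2L turned negative with the GC correction, at -0.083 (COX7A2) to -0.0059 (COX7A2L). NDUFB10 turned positive there, at 0.028. COX7A2 was also negative without GFP replicate 2 or 3 or RfA1 replicate 1 or 3, at -0.048 to -0.0048. With limma on log2(TPM + 1), SDHA, COX4I1 and ATP5MC3 turned positive, at 0.0024 to 0.037, where the median of all genes was 0.045. Of 29 named members, 10 passed an adjusted p of 0.05 under at least 1 of 15 alternatives, 8 of them without RfA1 replicate 2 and under no other. Some of the 29 had been named for their p or their change in the same libraries. The 10 therefore cannot be set against the 20.1% of all genes that passed without RfA1 replicate 2. The cause of these differences between settings was not tested.

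The labels give both groups the same replicate numbers without saying what they share, and the deviations of same-numbered libraries correlated at 0.17, 0.32 and -0.14, so that the numbers were not taken as pairs. With a replicate block, 625 genes (4.81%) and 3 of the 80 (UQCR11, NDUFA13 and NDUFS7) passed an adjusted p of 0.05 and 17 of the 80 an unadjusted p of 0.05, as did 23.6% of all genes. With the block and the GC correction together these counts were 336 (2.58%), 1 (UQCR11) and 18, the last against 17.1% of all genes, and the complex IV median was -0.0628. Assigning NDUFA4 to complex IV and leaving out the isoform, factor and inhibitor genes moved the medians of complexes I, IV and V by less than the spread between libraries. With 3 libraries a group, the precision for single genes is at best that of the intervals given, and for NDUFA4L2 and COX6B2 low counts limit it further.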
